A study of Mus musculus with 20 samples.

Results

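The RNA levels of 10 genes that release calcium from intracellular stores and refill those stores were followed in mouse brain with and without Ncs1, the gene of neuronal calcium sensor 1. The 10 genes were found by symbol in both deposited count tables, where 17148 genes were shared: the ryanodine receptors Ryr1, Ryr2 and Ryr3, the inositol trisphosphate (IP3) receptors Itpr1, Itpr2 and Itpr3, the store pump Atp2a2, the store sensors Stim1 and Stim2, and the entry channel Orai2. All 10 passed the filter on low counts in each comparison. Bulk RNA was sequenced in 20 libraries, 5 from each of 4 groups: Ncs1-/- hippocampus, wild-type (Ncs1+/+) hippocampus, Ncs1-/- frontal cortex and wild-type frontal cortex, all on the C57Bl6/J background. Per the labels, brains were dissected and the tissue was flash frozen. Whether each library stands for its own mouse is not in the labels, so the p-values cover the spread of these libraries, part of which may be technical.

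Neurons keep calcium inside the endoplasmic reticulum. Ryanodine receptors open in response to calcium itself and IP3 receptors in response to IP3 made downstream of surface receptors, and both let stored calcium into the cytosol. The SERCA pump encoded by Atp2a2 moves calcium back in, and when the store runs low STIM proteins sense it and open Orai channels of the plasma membrane. NCS-1 protein is known to bind IP3 receptors and to change their activity.

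Differences between the regions passed the test for most of these genes and differences between the genotypes did not. Stim2 and Orai2, a store sensor and a store-operated channel, were both higher in every hippocampus library than in any cortex library. The 250 bases before the start of each gene are shown because the 2 genes moved together. They are from RefSeq (build GRCm38.p6), whose promoter table held 7 of the 10 genes. Stim2 is read from chr5:53998273-53998522 on the plus strand and Orai2 from chr5:136170657-136170906 on the minus strand, each 5′ to 3′. Capitals mark the GC box GGGCGG and the E-box CACGTG.
Stim2: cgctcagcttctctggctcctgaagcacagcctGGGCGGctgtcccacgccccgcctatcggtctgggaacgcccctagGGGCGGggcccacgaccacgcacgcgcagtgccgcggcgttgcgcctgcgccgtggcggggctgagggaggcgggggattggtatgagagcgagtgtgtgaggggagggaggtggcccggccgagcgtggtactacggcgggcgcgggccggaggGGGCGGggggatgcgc
Orai2: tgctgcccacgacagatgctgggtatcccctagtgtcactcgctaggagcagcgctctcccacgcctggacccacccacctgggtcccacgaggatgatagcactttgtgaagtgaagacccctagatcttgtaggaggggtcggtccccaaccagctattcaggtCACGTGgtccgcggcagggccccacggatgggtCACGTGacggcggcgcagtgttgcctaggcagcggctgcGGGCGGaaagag
The Stim2 stretch was 74.8% G or C with 30 CpG dinucleotides, and the Orai2 stretch was 63.6% G or C with 17 CpG dinucleotides. The median over 32851 promoters in the table was 52.4% G or C and 6 CpG dinucleotides. Searched on both strands as GGGCGG or its reverse complement CCGCCC, the GC box was found 3 times in Stim2 and 1 time in Orai2, and 32.7% of the promoters of the table held it. The E-box CACGTG, which is its own reverse complement, was found 2 times in Orai2 and 0 times in Stim2, and 6.02% of the promoters held it. These matches describe letters only. Of the other motifs searched, TGACGTCA (CRE, in 1.55% of promoters), GCGTGGGCG (EGR site, 0.536%) and the box spelled TATAAA (12.4%) were in neither stretch. The CCAAT box, held by 33.8%, was found 1 time, in Stim2. Among the other genes in the promoter table, Stim1, which was lower in hippocampus, held the GC box 8 times. Its stretch was 78.4% G or C with 31 CpG dinucleotides. The GC box was found 4 times in Itpr2, 2 times in Ryr1, 1 time in Itpr3 and 0 times in Ryr2. Itpr3, also lower in hippocampus, held the E-box 1 time. Any link between these letters and the levels was not tested.

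Levels are counts scaled to depth (CPM) after TMM scaling over the 20 libraries, and depth was 16.6 M to 34.6 M counts per library. Ncs1 served as a check of the labels: it averaged 300.3 ± 21.2 CPM in knockout hippocampus and 441 ± 17.3 CPM in wild-type hippocampus, and 259 ± 3.68 CPM in knockout cortex and 368 ± 17.4 CPM in wild-type cortex (SD, n = 5 each). In both regions the highest knockout value was under the lowest wild-type value. Which exons the remaining reads cover is not visible in counts per gene. Pre-ribosomal Rn45s took 0.661% to 4.0% of the counts. Choroid plexus markers (6 of 6 found) summed to over 200 CPM in 4 libraries, at 3566 and 398 CPM in knockout hippocampus replicates 2 and 4, 2304 CPM in wild-type hippocampus replicate 4 and 251 CPM in knockout cortex replicate 1, against 5.87 to 58.9 CPM in the others. All cortex library names end in one suffix and all hippocampus names in another, so region and whatever that suffix stands for cannot be told apart.

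Expressed per kilobase (kb) of exon so that genes can be compared, the pump Atp2a2 (chr5:122453513-122502225, mm10, minus strand) was the highest of the 10 genes in all 4 groups. It averaged 178 ± 11.6 CPM per kb in knockout hippocampus, 172 ± 7.82 in wild-type hippocampus, 203 ± 4.28 in knockout cortex and 208 ± 12.1 in wild-type cortex (SD, n = 5 each). In both cortex groups Itpr1 was next, followed by Stim2, Orai2, Ryr2, Stim1, Ryr3, Itpr2, Ryr1 and Itpr3 by mean level per kb. Neighbours in that order whose libraries overlapped were Ryr2 and Stim1 in both genotypes, and in wild type also Ryr3 with Itpr2 and Ryr1 with Itpr3. In hippocampus the order after Atp2a2 was Orai2, Stim2 and Itpr1, whose neighbouring ranges overlapped in both genotypes, and then Ryr2, Stim1, Ryr3, Itpr2, Ryr1 and Itpr3 without overlap between neighbours. Itpr3, the IP3 receptor with the fewest reads, had 81 to 187 counts per library, and Atp2a2 had 20103 to 38920. The length used is that of all annotated exons of a gene joined. Which of these exons the transcripts here hold was not tested, and orders, shares and ratios per kb depend on it.

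**Figure D1:**
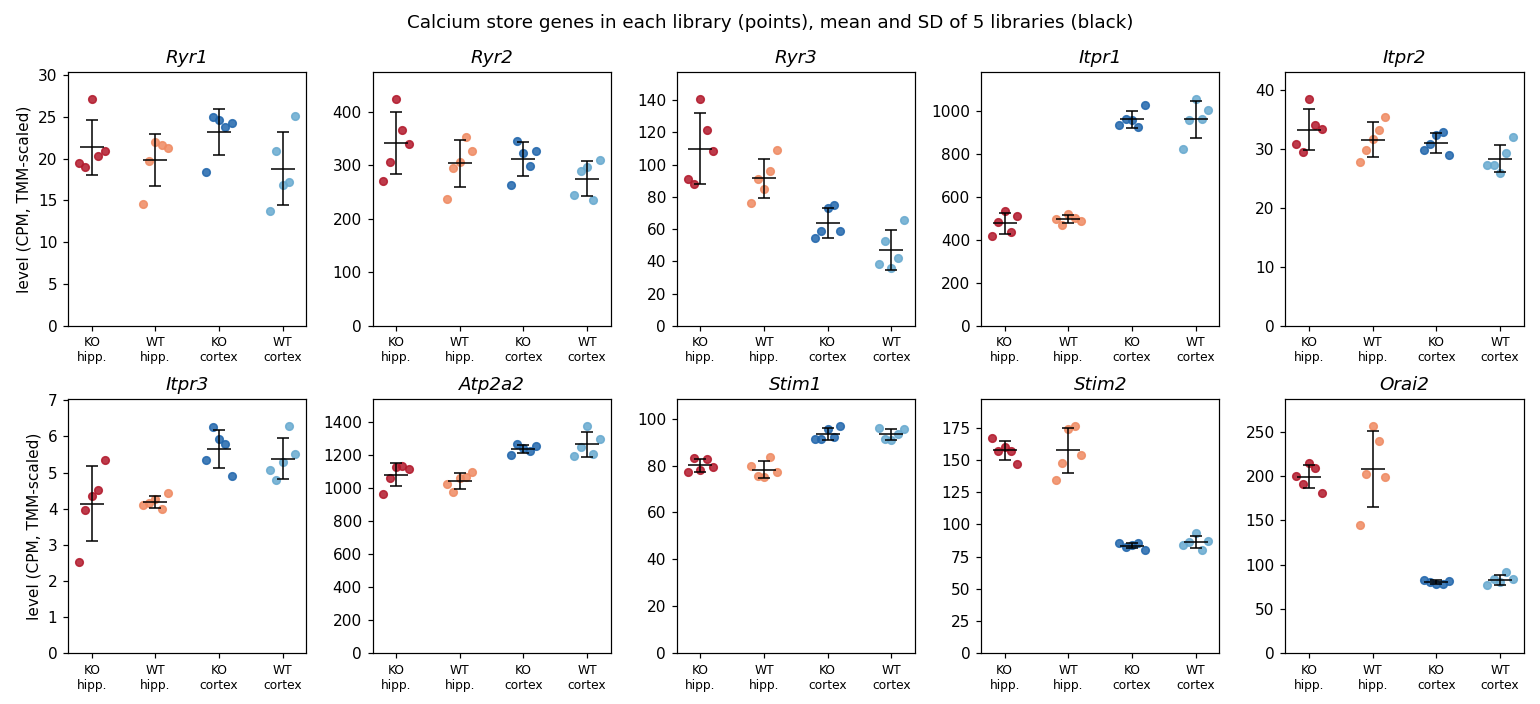
Level of each of the 10 genes (CPM, TMM-scaled, linear axis from 0) in every library, with knockout hippocampus, wild-type hippocampus, knockout cortex and wild-type cortex from left to right; points are libraries and black bars are the mean and SD of 5 libraries. Stim2 and Orai2 lie higher and Itpr1 lower in all hippocampus libraries than in any cortex library.

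Hippocampus was compared with frontal cortex within each genotype. In knockout tissue 7 of the 10 genes differed between regions (edgeR quasi-likelihood test, Benjamini-Hochberg adjusted p under 0.05), where 38.8% of all tested genes did. In wild-type tissue 7 of the 10 also differed, where 39.5% of all tested genes did. The same 7 genes passed in both genotypes with the same signs: Ryr3, Stim2 and Orai2 were higher in hippocampus (19.2% of all genes in knockout and 18.8% in wild type), and Itpr1, Itpr3, Atp2a2 and Stim1 were lower (19.6% and 20.7%). Libraries of the regions did not overlap for 6 of the 10 genes in knockout tissue (29.8% of all genes) and for 7 of the 10 in wild-type tissue (29.3% of all genes). The median log2 fold change of the 10 genes was -0.016 in knockout tissue and 0.095 in wild-type tissue, beside 0.013 and 0.0071 over all genes tested in each. In bulk tissue, fewer cells of a type and less RNA per cell cannot be told apart.

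Orai2 (chr5:136147461-136170656, minus strand) forms a store-operated calcium channel. It had 200.2, 191, 214, 209 and 181 CPM in knockout hippocampus, against 82.7, 80.3, 77.8, 78.0 and 81.2 CPM in knockout cortex. In wild type it had 145, 202, 256, 239 and 198 CPM in hippocampus, against 76.5, 83.5, 79.8, 91.4 and 83.2 CPM in cortex. Every hippocampus library lay above every cortex library, and the wild-type hippocampus libraries were the most spread, with replicate 1 lowest and replicate 3 highest. The log2 fold change was 1.31 in both genotypes, with an SE of 0.05 in knockout and 0.12 in wild type (edgeR adjusted p 3.95e-10 in knockout and 2.24e-06 in wild type).

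Stim2 (chr5:53998523-54121057, plus strand) encodes the STIM protein that responds to small losses of store calcium. It had 167, 157, 160.2, 157 and 147 CPM in knockout hippocampus, against 85.2, 82.6, 83.8, 85.3 and 80.5 CPM in knockout cortex. In wild type it had 135, 148, 174, 176 and 154 CPM in hippocampus, against 84.3, 86.4, 93.0, 80.3 and 87.4 CPM in cortex. The regions did not overlap in either genotype, and replicate 1 was again the lowest wild-type hippocampus library. The log2 fold change was 0.91 (SE 0.04) in knockout and 0.85 (SE 0.07) in wild type (edgeR adjusted p 2.04e-09 and 9.34e-07 in that order).

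Stim1 (chr7:102267819-102437318, plus strand), the other store sensor, lay on the opposite side. It had 77.3, 83.2, 77.9, 82.8 and 79.4 CPM in knockout hippocampus, against 91.3, 91.4, 95.6, 92.3 and 96.8 CPM in knockout cortex. Wild-type libraries gave 79.9, 75.4, 75.0, 83.6 and 77.1 CPM in hippocampus, against 96.1, 91.2, 91.1, 93.5 and 95.5 CPM in cortex. All hippocampus libraries were below all cortex libraries, by a log2 fold change of -0.23 (SE 0.04, edgeR adjusted p 0.000479) in knockout and -0.27 (SE 0.04, edgeR adjusted p 0.000146) in wild type. Per kb of exon, the ratio of Stim2 to Stim1 was 3.98 ± 0.268 in knockout hippocampus and 1.81 ± 0.0828 in knockout cortex, and 4.07 ± 0.469 in wild-type hippocampus and 1.87 ± 0.129 in wild-type cortex (SD, n = 5 each). Stim2 thus made up 79.9% of the STIM level per kb in knockout hippocampus and 64.3% in knockout cortex, and 80.2% in wild-type hippocampus and 65.1% in wild-type cortex. These shares rest on exon lengths of 10.37 kb for Stim1 and 5.133 kb for Stim2. In CPM not scaled for length, Stim2 was the higher in hippocampus. In cortex Stim1 was the higher, at means of 93.5 against 83.5 CPM in knockout and 93.5 against 86.3 CPM in wild type.

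Markers of dentate granule cells, a neuron type of the hippocampus, varied alongside Stim2 and Orai2. The summed level of 4 markers (Prox1, Dsp, C1ql2 and Lct, all found) was 240, 290, 377, 310 and 261 CPM in knockout hippocampus and 174, 283, 371, 377 and 272 CPM in wild-type hippocampus, against 20.2 to 26.6 CPM over the cortex libraries. Wild-type hippocampus replicate 1, with the lowest marker sum, had the lowest Stim2 and Orai2 levels of the hippocampus, and wild-type replicates 3 and 4 had the highest wild-type values of all 3. In knockout hippocampus the order was different: replicate 1 had the lowest marker sum and the highest Stim2 level. Markers of hippocampal pyramidal neurons (Fibcd1, Wfs1, Spink8 and Zbtb20, all found) also had higher sums in hippocampus, at 357, 340.2, 321, 302 and 347 CPM in knockout and 291, 381, 374, 329 and 384 CPM in wild type, against 133 to 144 CPM in knockout cortex and 100.3 to 173 CPM in wild-type cortex. This sum was lowest of all hippocampus libraries in wild-type replicate 1 and highest of the knockout ones in replicate 1. Wfs1, a large part of it, hardly differed between regions and its ranges overlapped. It averaged 119.5 CPM in knockout hippocampus and 116.3 CPM in knockout cortex, and 129 CPM in wild-type hippocampus and 121 CPM in wild-type cortex. The share of the region differences that goes with either set of markers was not tested.

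**Figure D2:**
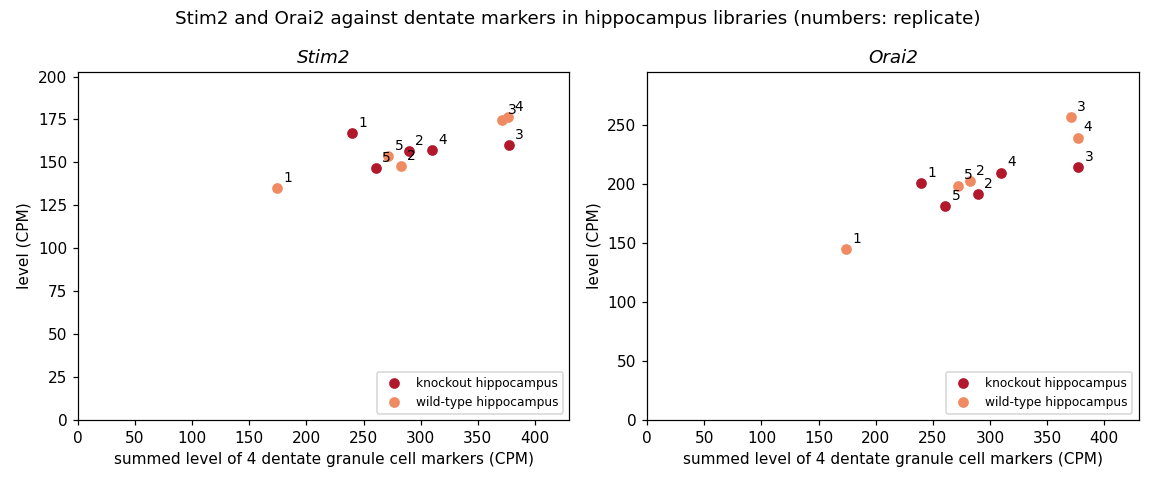
Level of Stim2 (left) and Orai2 (right) in CPM against the summed CPM of 4 dentate granule cell markers in the 10 hippocampus libraries, numbered by replicate; both axes are linear from 0. Wild-type replicate 1 is the lowest point in both plots, at 174 CPM of markers.

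Among the release channels, Itpr1 (chr6:108213096-108551116, plus strand), the main IP3 receptor of neurons, was the gene with the largest difference toward cortex. It had 417, 482, 535, 437 and 509 CPM in knockout hippocampus, against 931, 961, 955, 922 and 1026 CPM in knockout cortex. In wild type it had 496, 469, 519, 503 and 486 CPM in hippocampus, against 822, 958, 1053, 960.0 and 1004 CPM in cortex. No hippocampus library reached the cortex range. The log2 fold change was -1.02 (SE 0.07, edgeR adjusted p 4.58e-08) in knockout and -0.97 (SE 0.06, edgeR adjusted p 6.62e-08) in wild type, so the hippocampal level was 0.494 and 0.510 times the cortical level.

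The summed markers of striatal projection neurons and of cortical layers were lower in hippocampus, as Itpr1 was. The 8 striatal markers, all found, summed to 88.6 to 133 CPM in knockout hippocampus and 94.1 to 111 CPM in wild-type hippocampus, against 686 to 1195 CPM in knockout cortex and 625 to 1046 CPM in wild-type cortex. The 6 cortical layer markers, all found, summed to 139 to 175 CPM in knockout hippocampus and 138 to 213 CPM in wild-type hippocampus, against 412 to 473 CPM in knockout cortex and 423 to 489 CPM in wild-type cortex. Of these 6, 5 had lower means in hippocampus, and Fezf2 had higher ones, at 39.0 ± 2.77 CPM in knockout hippocampus and 21.2 ± 1.41 CPM in knockout cortex, and 40.4 ± 5.29 CPM in wild-type hippocampus and 24.8 ± 5.46 CPM in wild-type cortex (SD, n = 5 each). Purkinje cells of the cerebellum are known for very high Itpr1. The 4 of 5 Purkinje markers that were found summed to 157 ± 15.9 CPM in knockout hippocampus and 175 ± 10.9 CPM in knockout cortex, and 174 ± 9.86 CPM in wild-type hippocampus and 186 ± 13.8 CPM in wild-type cortex (SD, n = 5 each). Calb1 made up most of these sums, with means of 132, 126, 146 and 135 CPM in the same order of groups. Pvalb averaged 18.9, 30.1, 20.9 and 31.9 CPM and Car8 averaged 5.83, 18.2, 6.43 and 19.1 CPM in that order. Both were lower in hippocampus, as Itpr1 was. Ppp1r17, of the same list, averaged 0.134, 0.185, 0.129 and 0.226 CPM in that order, and Pcp2 was the marker not found. The part of these cell types in the Itpr1 difference was not tested.

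The other IP3 receptors were much less abundant. Itpr2 (chr6:146108299-146502223, minus strand), the main form of astrocytes, ranged over 29.5 to 38.5 CPM in knockout hippocampus and 29.0 to 32.9 CPM in knockout cortex, and over 27.8 to 35.5 CPM in wild-type hippocampus and 26.0 to 32.0 CPM in wild-type cortex. Its ranges overlapped, and its log2 fold change of 0.09 (SE 0.07) in knockout and 0.14 (SE 0.07) in wild type did not pass, with edgeR adjusted p-values of 0.326 and 0.150. With the replicate number as a block, Itpr2 passed in wild type (log2 fold change 0.14, edgeR adjusted p 0.0369). The labels do not say that the number pairs libraries, and wild-type hippocampus replicate 4 was closer to a cortex library of another number. Itpr3 (chr17:27057304-27122223, plus strand) had 2.53, 3.96, 4.34, 4.50 and 5.35 CPM in knockout hippocampus, against 5.35, 6.26, 5.93, 5.78 and 4.90 CPM in knockout cortex. Its wild-type libraries spanned 3.99 to 4.44 CPM in hippocampus and 4.80 to 6.28 CPM in cortex. The knockout ranges overlapped and the wild-type ranges did not, and the log2 fold change was -0.46 (SE 0.17, edgeR adjusted p 0.0479) in knockout and -0.38 (SE 0.10, edgeR adjusted p 0.00843) in wild type. The knockout call was lost in 9 of 10 fits that left out 1 library, over an adjusted p range of 0.0164 to 0.106, and passed only without knockout hippocampus replicate 5.

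Itpr1 accounted for 90.6% ± 0.732 of the IP3 receptor level per kb in knockout hippocampus and 95.1% ± 0.421 in knockout cortex, and for 91.2% ± 0.704 in wild-type hippocampus and 95.4% ± 0.465 in wild-type cortex (SD, n = 5 each). Itpr2 made up 7.86% in knockout hippocampus and 3.81% in knockout cortex, and 7.22% in wild-type hippocampus and 3.51% in wild-type cortex. Itpr1 thus remained the predominant form in both regions at a lower summed level in hippocampus, where the 3 receptors together gave 28.7 ± 2.89 CPM per kb in knockout against 55.1 ± 2.12 in knockout cortex, and 29.6 ± 1.07 in wild type against 54.9 ± 4.73 in wild-type cortex (SD, n = 5 each).

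**Figure D3:**
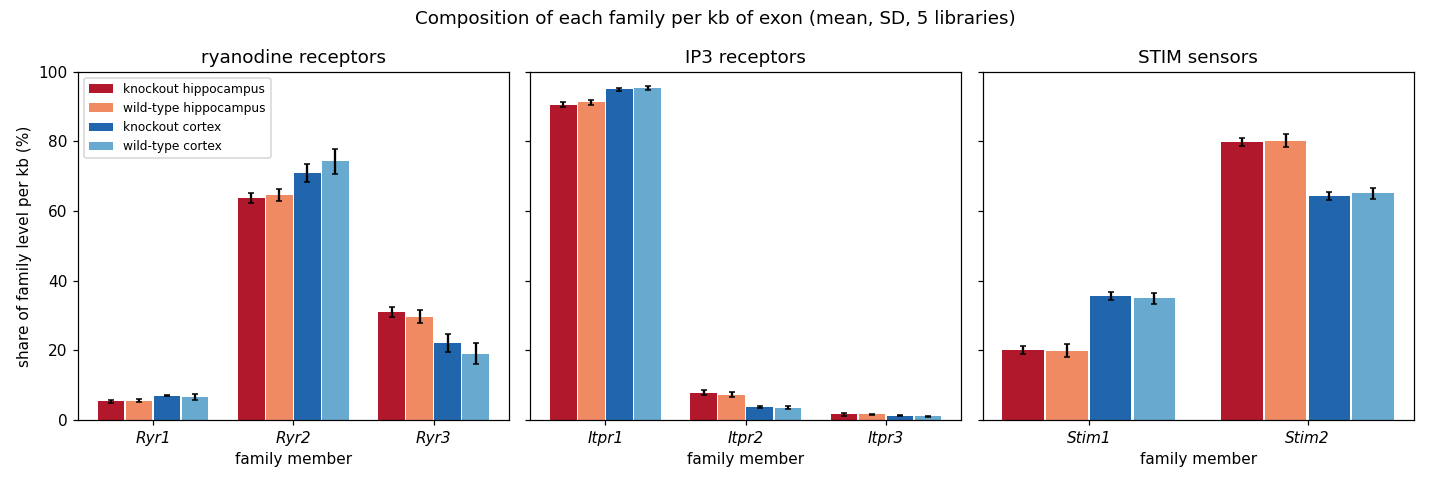
Share (percent) of each ryanodine receptor, IP3 receptor and STIM gene in the summed level per kb of its family, with bars from 0 for the mean of 5 libraries and black lines for the SD; groups run from knockout hippocampus to wild-type cortex. Ryr3 takes 31.0% in knockout hippocampus and 22.1% in knockout cortex, and Stim2 takes 79.9% and 64.3% of its family in the same groups.

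Of the ryanodine receptors, Ryr3 (chr2:112631382-113217083, minus strand), a form known from hippocampal neurons, was higher in hippocampus. It had 90.9, 87.7, 141, 121 and 109 CPM in knockout hippocampus, against 54.3, 58.7, 72.8, 74.8 and 58.9 CPM in knockout cortex. In wild type it had 76.5, 91.2, 85, 95.8 and 109 CPM in hippocampus, against 38.2, 52.3, 35.8, 42.0 and 65.9 CPM in cortex. All hippocampus libraries exceeded all cortex libraries of their genotype. The log2 fold change was 0.77 (SE 0.13, edgeR adjusted p 0.000351) in knockout and 0.95 (SE 0.15, edgeR adjusted p 0.000214) in wild type. The gene Aven on the other strand shares 916 exonic bases with Ryr3, and whether the counting used strand is not stated in what was used here. Aven averaged 5.34 ± 0.629 CPM in knockout hippocampus and 7.06 ± 0.757 CPM in knockout cortex (SD, n = 5 each), the opposite direction to Ryr3 (log2 fold change -0.41, SE 0.11, edgeR adjusted p 0.00955). In wild type its difference between regions did not pass (-0.16, SE 0.09, edgeR adjusted p 0.170). Between genotypes Aven had -0.099 in hippocampus and 0.15 in cortex (edgeR adjusted p 0.991 and 0.476), the sign of Ryr3 in cortex only. The part of Aven reads in the Ryr3 counts was not tested.

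Ryr2 (chr13:11553103-12106945, minus strand), the cardiac form and also the main one of neurons, was the most abundant ryanodine receptor per kb in every group. It ranged over 272 to 424 CPM in knockout hippocampus and 263 to 345 CPM in knockout cortex, and over 236 to 352 CPM in wild-type hippocampus and 235 to 310.3 CPM in wild-type cortex. Ryr1 (chr7:29003340-29125151, minus strand), the skeletal muscle form, ranged over 19 to 27.1 CPM in knockout hippocampus and 18.4 to 25.0 CPM in knockout cortex, and over 14.5 to 22.0 CPM in wild-type hippocampus and 13.8 to 25.1 CPM in wild-type cortex. Neither differed between regions beyond the spread of libraries, with edgeR adjusted p-values of 0.362 to 0.371 for Ryr2 and 0.388 to 0.766 for Ryr1. Both genes have over 20 kb of exon, at 28.8 kb for Ryr2 and 21.8 kb for Ryr1, and genes with more than 10 kb of exon had a median log2 fold change of -0.10 in knockout and -0.094 in wild type between regions. With the trend of level on exonic length removed from each library, Ryr2 passed, at a log2 fold change of 0.32 in knockout (edgeR adjusted p 7.53e-05) and 0.30 in wild type (edgeR adjusted p 0.000866). Itpr2 passed under the same setting, at 0.22 in knockout (edgeR adjusted p 0.00432) and 0.25 in wild type (edgeR adjusted p 0.00159).

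Ryr2 made up 63.8% ± 1.37 of the ryanodine receptor level per kb in knockout hippocampus and 70.9% ± 2.65 in knockout cortex, and 64.7% ± 1.71 in wild-type hippocampus and 74.4% ± 3.60 in wild-type cortex (SD, n = 5 each). The corresponding Ryr3 shares were 31.0% ± 1.36, 22.1% ± 2.67, 29.7% ± 1.94 and 19% ± 2.94. The summed IP3 receptor level per kb was 1.56 ± 0.197 times the summed ryanodine receptor level in knockout hippocampus and 3.63 ± 0.331 times in knockout cortex, and 1.85 ± 0.269 times in wild-type hippocampus and 4.30 ± 0.480 times in wild-type cortex (SD, n = 5 each).

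The pump Atp2a2 encodes SERCA2. It had 965, 1059, 1126, 1134 and 1114 CPM in knockout hippocampus, against 1197, 1264, 1240.3, 1225 and 1253 CPM in knockout cortex. Wild-type libraries had 1023, 973, 1058, 1067 and 1097 CPM in hippocampus, against 1191, 1249, 1372, 1206 and 1298 CPM in cortex. All hippocampus libraries were below all cortex libraries of the same genotype, with a log2 fold change of -0.20 (SE 0.05, edgeR adjusted p 0.00328) in knockout and -0.29 (SE 0.05, edgeR adjusted p 0.000338) in wild type.

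**Figure D4:**
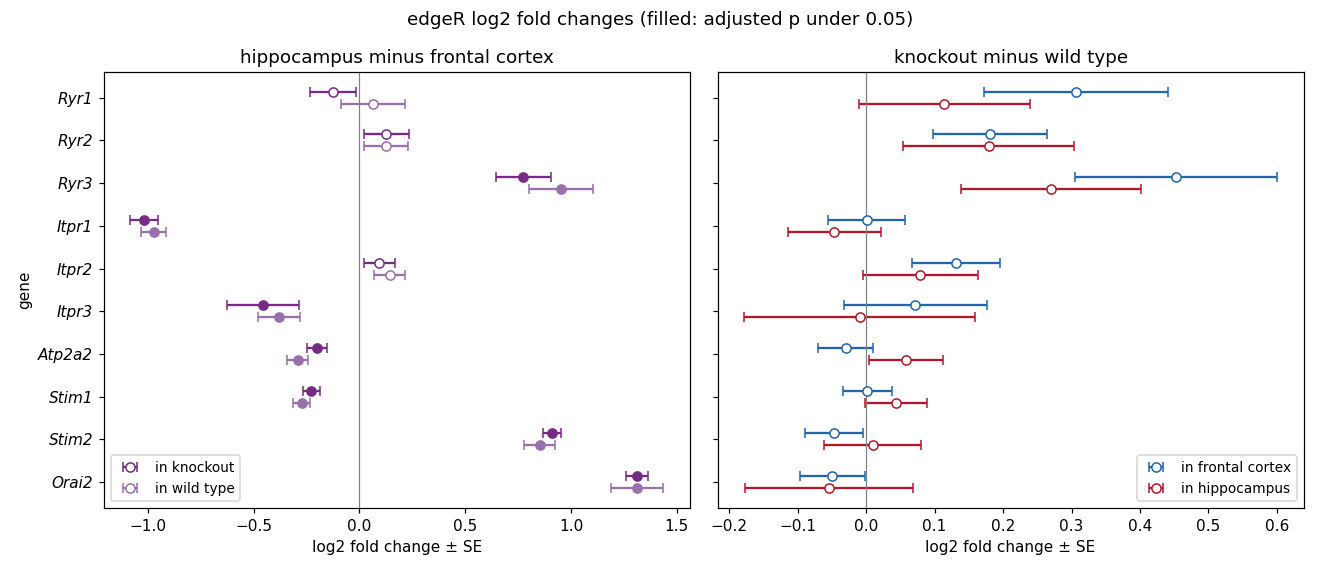
Log2 fold change with its SE (edgeR) of each of the 10 genes, hippocampus minus frontal cortex in each genotype (left, 5 libraries a group) and knockout minus wild type in each region (right, 5 libraries a group); filled points passed an adjusted p of 0.05. Between regions 7 genes are filled in each genotype, and 0 are filled between genotypes; the horizontal scales of the panels differ.

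The question of whether loss of Ncs1 goes with altered levels of the store genes was addressed within each region. In hippocampus 0 of the 10 genes passed an edgeR adjusted p of 0.05, where 0.0266% of all tested genes did, and 0 had an unadjusted p under 0.05, where 3.78% of all genes had one. In frontal cortex 0 of the 10 passed, where 0.0270% of all tested genes did, and 3 of the 10 had an unadjusted p under 0.05, where 14.8% of all genes had one. All 3 were higher in knockout, where 8.08% of all genes had one in that direction. DESeq2 and limma-voom also called 0 of the 10 in each region, though DESeq2 gave Ryr1 and Itpr3 no adjusted p in cortex. Knockout and wild-type ranges overlapped for all 10 genes in both regions, where 0.479% of all genes in hippocampus and 2.15% in cortex had ranges apart. The median log2 fold change of the 10 genes was 0.051 in hippocampus and 0.037 in cortex, beside 0.0070 and 0.0019 over all genes tested in each.

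The 3 cortical genes with an unadjusted p under 0.05 were the ryanodine receptors. Ryr3 averaged 63.9 ± 9.26 CPM in knockout cortex and 46.9 ± 12.4 CPM in wild-type cortex (SD, n = 5 each), and its log2 fold change was 0.45 (SE 0.15, edgeR adjusted p 0.239). Ryr1 had 18.4, 25.0, 24.6, 23.8 and 24.2 CPM in knockout cortex, against 13.8, 21.0, 16.9, 17.2 and 25.1 CPM in wild-type cortex (log2 fold change 0.31, SE 0.13, edgeR adjusted p 0.316). For Ryr2 the values were 263, 345, 324, 299 and 327 CPM in knockout cortex, against 244, 289, 296, 235 and 310.3 CPM in wild-type cortex (log2 fold change 0.18, SE 0.08, edgeR adjusted p 0.333). Wild-type cortex replicate 5 was the highest wild-type library for each of the 3 genes and lay within or above the knockout range. The summed striatal markers were 1045, 686, 916, 1195 and 919 CPM in knockout cortex, against 719, 882, 625, 910.0 and 1046 CPM in wild-type cortex, so replicate 5 was also the highest wild-type library for these, and replicate 3, the lowest for Ryr3, the lowest. The lowest wild-type library was replicate 1 for Ryr1 and replicate 4 for Ryr2. In knockout cortex replicate 1 was lowest for all 3 genes but not for the markers. There replicate 2, lowest for the markers, was highest for Ryr1 and Ryr2. Replicate 4, highest for the markers there, was highest for Ryr3. The part of the striatal markers in the ryanodine receptor values was not tested. Without wild-type cortex replicate 5 Ryr3 passed, at a log2 fold change of 0.61 (SE 0.12, edgeR adjusted p 0.0270), Ryr1 stood at 0.43 (SE 0.11, edgeR adjusted p 0.0523) and Ryr2 at 0.23 (SE 0.08, edgeR adjusted p 0.123), and 563 genes passed over the whole table in place of 4. Over the 10 fits that each left out 1 library, Ryr3 ranged over 0.37 to 0.61 (edgeR adjusted p 0.0270 to 0.468). Ryr1 ranged over 0.22 to 0.43 (edgeR adjusted p 0.0523 to 0.530) and Ryr2 over 0.13 to 0.24 (edgeR adjusted p 0.123 to 0.571).

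In hippocampus the ryanodine receptors also had positive log2 fold changes, 0.27 (SE 0.13) for Ryr3, 0.18 (SE 0.12) for Ryr2 and 0.11 (SE 0.12) for Ryr1, each with an edgeR adjusted p of 0.991. Knockout replicate 3 was the highest of the knockout hippocampus libraries for all 3 genes. Fold changes between genotypes went with exonic length over all genes, where Pearson's r across genes was 0.19 in hippocampus and 0.22 in cortex and genes are not independent replicates. Genes with more than 10 kb of exon, which include Ryr1, Ryr2, Ryr3, Itpr1, Itpr2 and Stim1, had a median log2 fold change of 0.076 in hippocampus and 0.091 in cortex. With the trend on length removed, Ryr3 had 0.15 in hippocampus and 0.33 in cortex (edgeR adjusted p 0.994 and 0.320), and Ryr2 had 0.028 in hippocampus and 0.0037 in cortex. Ryr1 had -0.0040 in hippocampus and 0.16 (SE 0.10, edgeR adjusted p 0.500) in cortex. Ncs1 and Ryr3 both lie on chromosome 2, far apart, with Ncs1 at 31245923 to 31295471 and Ryr3 at 112631382 to 113217083. Whether the Ryr3 values go with this position was not tested.

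**Figure D5:**
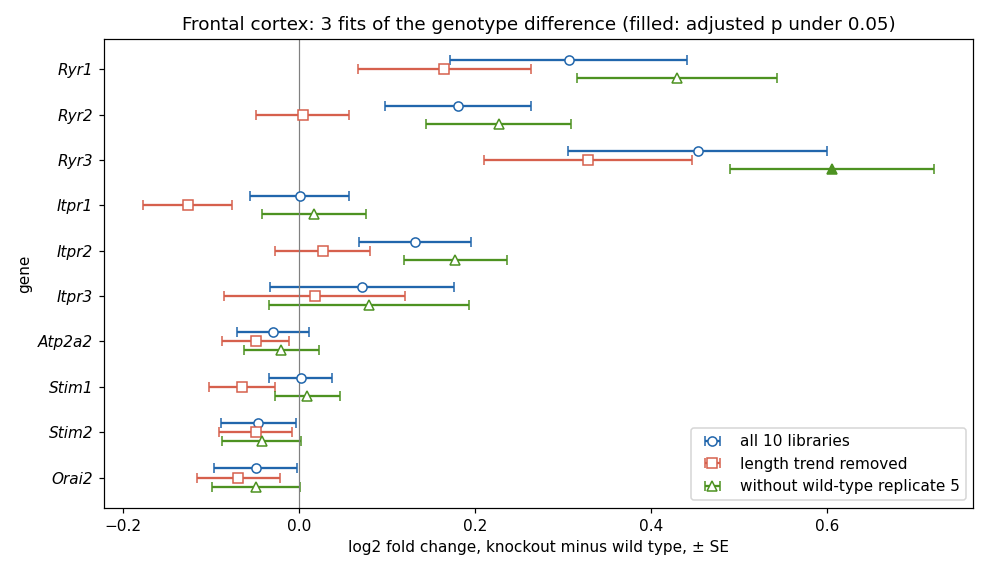
Log2 fold change with its SE, knockout minus wild type in frontal cortex, from 3 fits of the same genes: all 10 libraries (circles), the length trend removed (squares) and wild-type replicate 5 left out (triangles); the filled point passed an adjusted p of 0.05. Ryr3 is 0.45, 0.33 and 0.61 in the 3 fits, and Ryr2 is 0.18, 0.0037 and 0.23. Over all 10 fits that left out 1 library, which are not drawn except for this one, Ryr3 ranged over 0.37 to 0.61.

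The remaining genes had log2 fold changes between genotypes of at most 0.13 in size before any length adjustment. Itpr1, the receptor type that NCS-1 is known to bind, had -0.046 (SE 0.07, edgeR adjusted p 0.991) in hippocampus and 0.00055 (SE 0.06, edgeR adjusted p 0.997) in cortex. With the length trend removed it had -0.16 (SE 0.07, edgeR adjusted p 0.994) in hippocampus and -0.13 (SE 0.05, edgeR adjusted p 0.350) in cortex. The largest of them was Itpr2 in cortex, at 31.0 ± 1.67 CPM in knockout and 28.4 ± 2.33 CPM in wild type (SD, n = 5 each), with a log2 fold change of 0.13 (SE 0.06, edgeR adjusted p 0.352). Atp2a2 had 0.058 (SE 0.05) in hippocampus and -0.030 (SE 0.04) in cortex, and Stim1 had 0.043 (SE 0.05) and 0.0017 (SE 0.04). Stim2 had 0.0094 (SE 0.07) in hippocampus and -0.046 (SE 0.04) in cortex, and Orai2 had -0.055 (SE 0.12) and -0.050 (SE 0.05). Itpr3, with -0.0096 (SE 0.17) in hippocampus and 0.072 (SE 0.10) in cortex, was the least precise of the remaining genes in hippocampus.

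The genotype difference in hippocampus minus that in cortex was tested over all 20 libraries. By edgeR 0 of the 10 genes passed, where 0% of 15310 tested genes did, and 0 of the 10 had an unadjusted p under 0.05, where 1.40% of all genes had one. DESeq2 called 1 gene over the whole table and 0 of the 10. The values ranged over -0.20 (SE 0.20) for Ryr1 and -0.19 (SE 0.22) for Ryr3 to 0.08 (SE 0.07) for Atp2a2, each with an edgeR adjusted p of 0.9998.

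Other genes of the pathway were read from 7 lists with 96 symbols, chosen with earlier results of these data known. Between genotypes 0 of 88 tested genes passed in hippocampus and 0 of 88 in cortex, beside 0.0266% and 0.0270% of all tested genes. At an unadjusted edgeR p under 0.05 there were 3 of 88 in hippocampus and 10 of 88 in cortex, beside 3.78% and 14.8% of all tested genes. Between regions 48 of 87 passed in knockout tissue, 33 higher and 15 lower in hippocampus, beside 38.8% of all tested genes (19.2% higher and 19.6% lower). In wild-type tissue 50 of 87 passed, 33 higher and 17 lower, beside 39.5% of all tested genes (18.8% higher and 20.7% lower). Among regulators of the release channels, 14 of 23 passed in knockout and 16 of 23 in wild type, with the same shares of all genes beside them. Homer3, a scaffold that ties receptors of the synapse to IP3 receptors, averaged 40.8 ± 5.30 CPM in knockout hippocampus and 4.96 ± 0.575 CPM in knockout cortex, and its relative Homer1 averaged 183 ± 11.5 and 318 ± 26.4 CPM in the same groups (SD, n = 5 each). The wild-type log2 fold changes were 3.20 (SE 0.10) for Homer3, -0.87 (SE 0.08) for Homer1 and 0.88 (SE 0.10) for Jph1, which encodes a junctophilin that links the store to the surface membrane (edgeR adjusted p 5.96e-10, 1.16e-06 and 1.02e-05 in that order).

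In the store-operated entry list, 7 of 11 genes passed in knockout (38.8% of all tested genes) and 6 of 11 in wild type (39.5% of all tested genes). Trpc4 had a wild-type log2 fold change of 1.71 (SE 0.08, edgeR adjusted p 4.22e-09) and Trpc5 one of 0.96 (SE 0.09, edgeR adjusted p 1.63e-06), both cation channels opened downstream of phospholipase C. The other Orai genes, named after their values were seen, were also higher in hippocampus in wild type, Orai1 by 0.54 (SE 0.11, edgeR adjusted p 0.00179) and Orai3 by 0.85 (SE 0.11, edgeR adjusted p 2.88e-05). Their hippocampal means of 6.32 CPM for Orai1 and 21.6 CPM for Orai3 in knockout, and 6.31 and 24.2 CPM in wild type, are not scaled for length. In the list of IP3 production and breakdown, 16 of 23 passed in knockout, 9 higher and 7 lower, and 17 of 23 in wild type, 9 higher and 8 lower, against the same 38.8% and 39.5% of all tested genes. Plcb4, a phospholipase C that makes IP3, averaged 27.2 ± 4.99 CPM in knockout hippocampus and 84.0 ± 4.37 CPM in knockout cortex (SD, n = 5 each), with a wild-type log2 fold change of -1.97 (SE 0.11, edgeR adjusted p 3.90e-08). Htr2a, a serotonin receptor that couples to phospholipase C, had -1.79 (SE 0.17, edgeR adjusted p 2.70e-06) and Plch1, another phospholipase C, had -0.86 (SE 0.10, edgeR adjusted p 2.30e-05) in wild type.

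The remaining lists are smaller, and 38.8% of all tested genes in knockout and 39.5% in wild type are the shares to read them against. Of the other pumps and their modulators 3 of 5 passed in each genotype, all higher in hippocampus, among them the Golgi pump Atp2c1 at 0.24 (SE 0.05) and Tmco1, which encodes a channel of the endoplasmic reticulum, at 0.23 (SE 0.07) in wild type. Of the calcium-binding proteins of the store lumen, 3 of 10 passed in knockout and 2 of 10 in wild type, with Rcn1 at -0.57 (SE 0.10) and Calr, which encodes calreticulin, at 0.16 (SE 0.06) in wild type. Of the mitochondrial uptake genes, 3 of 11 passed in knockout and 4 of 11 in wild type, with the uniporter Mcu at 0.59 (SE 0.05), its regulator Micu3 at -0.19 (SE 0.05) and Micu2 at 0.19 (SE 0.06) in wild type. Of the channels of other organelles, 2 of 4 passed in each genotype, and Cd38, whose enzyme makes messengers for ryanodine receptors and lysosomal channels, had 1.65 (SE 0.14) in wild type, and the lysosomal channel gene Mcoln1 had -0.15 (SE 0.05). The edgeR adjusted p-values of these 9 genes in wild type ranged over 7.43e-07 to 0.0478.

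For each of the 10 genes, the gene with the highest Pearson's r of log2 level over the 20 libraries was looked up among genes that averaged 5 CPM or more. Because the libraries fall apart by region, r within each region is given beside it, and no p is given. Stim2 was most like Lct, 1 of the 4 dentate markers summed above, with r = 0.992 over 20 libraries, 0.787 over the 10 hippocampus libraries and 0.423 over the 10 cortex libraries. Lct averaged 42.5 CPM in knockout hippocampus and 1.68 CPM in knockout cortex, and 43.1 and 1.71 CPM in wild type. It thus reached the mean of 5 CPM only through hippocampus, and r over 20 libraries largely reflects the gap between regions. Orai2 was most like Stum, with r = 0.991, 0.836 and 0.556 over the 20, the hippocampus and the cortex libraries in that order. Itpr1 was most like St6gal2 (0.993, 0.837 and 0.763) and Ryr3 was most like Shisa7 (0.967, 0.852 and 0.938). Ryr2 was most like Braf (0.937, 0.977 and 0.931), and Ryr1 was most like Ylpm1 (0.886, 0.831 and 0.971). For Itpr2, Itpr3, Atp2a2 and Stim1 the genes were Map4k5, Clcn3, Ttll7 and Ccdc157. Their r was 0.914 to 0.953 over 20 libraries and 0.859 to 0.948 over the hippocampus libraries. Over the cortex libraries it was 0.892 for Itpr2 with Map4k5, 0.550 for Itpr3 with Clcn3, 0.583 for Atp2a2 with Ttll7 and 0.450 for Stim1 with Ccdc157.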

How the data were processed

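Total RNA of 20 libraries was prepared with Illumina protocols, per the labels. The authors deposited estimated counts of reads for each gene, without depth scaling, in a table for each region. STAR 2.7.3a, Partek and build mm10 are named per the submitters' processing notes. Which annotation, counter, strand option and filter were used is not stated in the sources used here. Estimated counts can divide reads that match more than 1 gene.

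Counts were rounded and fitted across all genes in edgeR 4.0.16 under R 4.3.3 (filterByExpr, TMM, quasi-likelihood tests, Benjamini-Hochberg adjustment over all tested genes, threshold 0.05). SEs were derived from the log2 fold change and the F statistic. Levels are CPM, and per kb they use the union of exons of GENCODE vM21, found for 98.2% of tested genes. Within-group pairs were checked for duplicates (lowest chi-square per degree of freedom 3.44). Same-numbered libraries had positive r in wild type between regions (0.109 to 0.672 in 5 pairs). There hippocampus replicate 4 was closer to another number, at r = 0.328. In the other comparisons at least 1 pair had r under 0.1. In knockout between regions r was -0.225 to 0.474, and libraries numbered 1, 3 and 4 were closest to their own number. The labels do not say whether the number pairs libraries, so the block was run as an alternative only. Alternatives were other scalings, DESeq2 1.42.0, limma-voom (limma 3.58.1), other filters, 1 fit over 20 libraries, the replicate block, each library left out and the length trend removed (lowess, span 0.3). Removal of the 4 libraries with choroid plexus markers over 200 CPM and a fit with genotype and number as 1 mouse were chosen after seeing the data. The methods were also run on simulated data, and how well they recover changes as small as those between genotypes is not given here.

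The 10 genes and the lists were chosen with earlier results of these data known. Named genes are the 10, Ncs1 as a label check, pathway genes past the threshold between genotypes, up to 3 per list between regions (largest wild-type change, mean of at least 5 CPM), and the gene most like each of the 10. Of these, 1 is not reported here. Coordinates are those of the deposited tables, counted from 1, with the end moved 1 base down after comparison with RefSeq starts.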

Additional observations from a re-analysis of the deposited data

Results flagged for a closer look

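Within each group of 5 libraries the highest and lowest value of each of the 10 genes were compared with the rest by Dixon's criterion, in 40 gene and group combinations. Of these 2 were flagged, and chance flags about 1 in 20, or 2 of 40. Both concern Ryr1. In knockout hippocampus replicate 3 was far above the others, at 27.1 CPM against 19 to 20.9 CPM. In knockout cortex replicate 1 was far below the others, at 18.4 CPM against 23.8 to 25.0 CPM. Knockout cortex replicate 1 was also the cortex library with the most choroid plexus marker RNA, at 251 CPM. Whether the Ryr1 value goes with it was not tested.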

How the results depend on the processing

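The number of the 10 genes that passed was 0 between genotypes in hippocampus and for the interaction under every alternative run, and 0 between genotypes in cortex except without wild-type cortex replicate 5, where it was 1 (range 0 to 1 over the libraries left out). Between regions it was 6 to 8 in knockout and 7 to 9 in wild type. The replicate block gave 7 in knockout and 8 in wild type between regions, 0 between genotypes and 0 for the interaction. Of the block calls that differed, Itpr2 in wild type was the one among the 10 genes. Itpr3 between regions in knockout lost its call under total-count scaling (-0.43, edgeR adjusted p 0.0641), without a filter (-0.44, 0.0567), with the length trend removed (-0.39, 0.0513) and without the choroid plexus libraries (-0.49, 0.127). The other 6 genes kept their calls between regions under every alternative.

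Signs turned only for values that did not pass, the largest of them -0.13 (Ryr1 between regions in knockout) and 0.11 (Ryr1 between genotypes in hippocampus) before the turn. In cortex between genotypes Itpr1 was -0.0011 under RLE scaling and -0.0011 with DESeq2, -0.0037 without a filter, -0.00071 in 1 fit over 20 libraries and -0.13 with the length trend removed, and -0.050 to 0.036 with a library left out. There Stim1 was -0.0025 without a filter and -0.065 with the length trend removed, and -0.011 to 0.011 with a library left out, and Atp2a2 was -0.051 to 0.00081. In hippocampus with the length trend removed Ryr1 was -0.0040, Itpr2 -0.0057 and Stim1 -0.0095, and with a library left out Itpr3 was -0.13 to 0.12, Stim2 -0.043 to 0.054 and Orai2 -0.16 to 0.028. Between regions Ryr1 was 0.046 in knockout with the length trend removed and -0.019 to 0.19 in wild type with a library left out. For the interaction Ryr2 was 0.00075 under total-count scaling, 0.0047 with a 1 CPM filter, 0.027 with the length trend removed and 0.012 without the choroid plexus libraries. There Orai2 was 0.0018, 0.0013, 0.00093 and 0.052 under the same 4 settings, 0.0081 with limma-voom and 0.0065 with genotype and number as 1 mouse. With a library left out the interaction was -0.098 to 0.063 for Ryr2, -0.21 to 0.050 for Itpr3, -0.0011 to 0.092 for Stim2 and -0.12 to 0.073 for Orai2. The cause of these turns was not tested.

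DESeq2 called 169 genes in cortex in place of 4 and gave Ryr1 and Itpr3 no adjusted p there. In hippocampus it called 6 genes between genotypes in place of 4, and without the choroid plexus libraries edgeR called 0. With 81 to 187 counts per library, Itpr3 is the gene most limited by depth. With 5 libraries a group, SEs between genotypes were 0.04 to 0.17 on the log2 scale.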
